A study of Mus musculus with 7 samples.

Results

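The genes of sterol and fatty acid synthesis were examined in mouse precision-cut liver slices (PCLS) on day 3 of culture. The list has 42 genes, chosen by the pathway they belong to and with earlier results of these data known. Each of the 42 symbols matched 1 row among the 55487 Ensembl genes of the count table. The list holds 6 regulators, 19 genes of sterol synthesis and handling, 11 of fatty acid synthesis and 6 of glycerolipid synthesis. The slices came from the median liver lobe of adult healthy male Balb/c mice and were kept in Williams' Medium E with Ultraglutamine and antibiotics. The 3 CTR libraries were from slices without further addition, and the 4 VPA libraries from slices that also received valproic acid (VPA) at 2.5 mM, an inhibitor of class I histone deacetylases. A slice holds all cell types of the liver and a cut surface, so that a lower level in its RNA cannot be told apart from fewer cells that make the RNA. The labels also carry slice culture numbers (71, 72 and 74 in both groups, 73 in VPA alone), and the methods count each liver as a repeat of its own without tying these numbers to livers, so that CTR and VPA slices of the same number may share a liver.

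Hepatocytes make cholesterol from acetyl-CoA through the mevalonate pathway, and make fatty acids from the same precursor when carbohydrate is plentiful. Both routes are switched on by the sterol regulatory element-binding proteins (SREBPs), membrane-bound transcription factors. Scap carries them out of the endoplasmic reticulum when sterols are low, and the Insig proteins hold them back when sterols are high. SREBP-2 (Srebf2) acts mainly on the sterol genes and SREBP-1 (Srebf1) mainly on the fatty acid genes, on which the carbohydrate-responsive factor ChREBP (Mlxipl) also acts.

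The main pattern was a lower level of several enzymes of sterol synthesis and of fatty acid synthase with VPA, while the RNA of the SREBP regulators lay at overlapping levels. Fasn was at 62.9 ± 11.2 CPM (counts scaled to a common library size, SD, n = 3) in CTR and 21.2 ± 10.7 CPM (SD, n = 4) in VPA. Hmgcs1, Fdps, Sqle, Cyp51, Msmo1, Nsdhl and Acly were also lower in every VPA library than in any CTR library, and Lpin1 was higher in every VPA library. No member passed an adjusted p of 0.05 in edgeR's quasi-likelihood test, in which 1 of the 10876 genes tested passed, or 0.00919%. At an unadjusted p under 0.05 in the same test, 6 members were lower (Hmgcs1, Fdps, Sqle, Cyp51, Msmo1 and Fasn) and 1 was higher (Lpin1). DESeq2 called 1 member, Fasn, among 154 genes (1.01% of those with an adjusted p), and limma-voom called 0 members and 1 gene (0.00919%).

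Of the 42 members, 40 had enough counts to be tested, and none of these had reached that level in 1 group alone. The 6 members lower at an unadjusted p under 0.05 are 15.0% of those tested, where 4.62% of all genes tested were lower in this way. The 1 higher member is 2.50%, where 3.65% of all genes were higher. In 8 of 40 members, or 20%, every VPA library lay below every CTR library, against 7.41% of all genes, and in 1 member every VPA library lay above, against 4.44% of all genes. Whatever the p, 30 of the 40 members were lower (75%), where 54.2% of all genes tested were. The median log2 fold change of the 40 members was −0.26 and that of all genes tested was −0.06. These shares describe a list chosen with earlier results of these data known, and the list as a whole was not tested. The count of lower members rests in part on single libraries, being 3 without CTR replicate 3, where 3.17% of all genes tested were lower, and between 4 and 7 without any other, where 2.83% to 6.22% were. Leaving out CTR replicate 2 gave 0 higher members, and leaving out either VPA replicate 1 or VPA replicate 2 gave 2, with Insig2 or Dgat2 beside Lpin1.

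The libraries held 1743675 to 4773750 counts in CTR and 1400887 to 3102450 in VPA, of which 0.141% to 0.242% fell on the members. A count of 0 allows up to 3 counts, or 0.591 to 2.41 CPM depending on the library, which covers counting error only. Transcripts of the mitochondrial genome took 14.5% to 27.7% of the counts in CTR and 23.9% to 32.5% in VPA (two-sided exact permutation test, p = 0.143). Fewer genes had a count in VPA libraries (14359 to 16761) than in CTR libraries (17744 to 19756; exact permutation test, p = 0.0286, the smallest that 3 against 4 libraries allow). Among genes for which the other libraries gave an expected count of at least 20, 1.33% to 2.06% had no count at all in a CTR library and 3.76% to 8.59% had none in a VPA library. The summed level of 20 hepatocyte markers ran from 9969 to 24717 CPM in CTR and from 6309 to 20121 CPM in VPA (exact permutation test, p = 0.771), with 10 of the 18 tested higher and 8 lower, 1 of the latter at an unadjusted p under 0.05. The 14 stellate cell markers summed to 3347 to 6398 CPM in CTR and 2424 to 4188 CPM in VPA (p = 0.0857 in the exact permutation test), with 11 of 14 lower, 4 of them at an unadjusted p under 0.05. The 10 endothelial markers summed to 391 to 447 CPM and 113 to 370 CPM (p = 0.0571 in the exact permutation test), with 7 of 9 tested lower and 4 lower in every VPA library than in any CTR library. Sums of 11 macrophage markers and 8 cholangiocyte markers overlapped between the groups (exact permutation p = 0.514 and 0.429), and of 8 adipocyte markers 6 had no count in any library. The sum of the adipocyte markers was 37.3 to 47.7 CPM in CTR and 3.21 to 47.0 CPM in VPA (exact permutation test, p = 0.114). The part that these measures have in the differences below was not tested.

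Promoters are shown for 4 of the lower genes and for Lpin1, because the sterol and lipogenic genes are known for short elements close to their start sites. The sequences are the 250 bases before the RefSeq start site on GRCm38.p6, read 5′ to 3′ on the strand of the gene. Capitals mark matches on either strand to TCACNCCAC (the letters of a classical SREBP element), CACGTG (an E-box), CCAAT (the NFY box) and GGGCGG (an SP1 box).

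Hmgcs1 (chr13:119690101-119690350, + strand): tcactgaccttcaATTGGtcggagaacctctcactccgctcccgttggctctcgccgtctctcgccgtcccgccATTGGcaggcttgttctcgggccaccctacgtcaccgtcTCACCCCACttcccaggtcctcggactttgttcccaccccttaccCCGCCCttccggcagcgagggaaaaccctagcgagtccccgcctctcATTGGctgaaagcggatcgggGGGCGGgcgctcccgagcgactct
Cyp51 (chr5:4104698-4104947, − strand): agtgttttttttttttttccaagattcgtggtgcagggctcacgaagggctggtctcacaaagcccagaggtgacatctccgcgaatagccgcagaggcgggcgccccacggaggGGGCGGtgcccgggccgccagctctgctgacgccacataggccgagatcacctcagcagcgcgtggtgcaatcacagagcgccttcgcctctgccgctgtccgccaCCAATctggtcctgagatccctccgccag
Msmo1 (chr8:64733579-64733828, − strand): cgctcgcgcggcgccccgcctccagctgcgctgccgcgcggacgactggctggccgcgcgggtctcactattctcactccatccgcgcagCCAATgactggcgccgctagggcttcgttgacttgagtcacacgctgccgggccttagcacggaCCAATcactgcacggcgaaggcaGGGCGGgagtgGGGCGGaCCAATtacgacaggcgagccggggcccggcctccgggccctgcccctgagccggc
Fasn (chr11:120824548-120824797, − strand): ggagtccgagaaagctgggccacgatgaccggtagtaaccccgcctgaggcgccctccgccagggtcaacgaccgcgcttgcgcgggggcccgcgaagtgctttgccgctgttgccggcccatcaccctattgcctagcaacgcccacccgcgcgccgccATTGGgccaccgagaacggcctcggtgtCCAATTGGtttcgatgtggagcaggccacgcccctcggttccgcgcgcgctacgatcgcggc
Lpin1 (chr12:16610967-16611216, − strand): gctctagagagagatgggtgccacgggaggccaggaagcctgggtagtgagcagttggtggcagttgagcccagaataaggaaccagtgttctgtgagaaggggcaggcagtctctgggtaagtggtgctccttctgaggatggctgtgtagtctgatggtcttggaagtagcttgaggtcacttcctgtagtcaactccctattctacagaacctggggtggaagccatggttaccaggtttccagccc

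The Hmgcs1 window held 1 SREBP-type match, 3 NFY boxes and 2 SP1 boxes, and the Msmo1 window held 3 and 2 of the latter. In Fasn there were 3 NFY boxes, of which 2 share letters, in Cyp51 1 NFY box and 1 SP1 box, and in Lpin1 none of the 4 motifs. Windows were given for 33 members, and for some of these there were several. An NFY box was in 25 of the 33 genes (75.8%) against 37.5% of the 27025 genes of the promoter table, and an SP1 box in 26 (78.8%) against 35.4%. Counted over windows, of which the members had 46, the shares were 56.5% against 33.9% for the NFY box and 65.2% against 32.7% for the SP1 box. The promoter table was not limited to the genes tested here, so these shares do not set the members against other expressed genes. Among the sterol genes each of these motifs was in 14 of 15 (93.3%), and an SP1 box was in 6 of 6 regulators (8 of their 12 windows). The fatty acid genes held an NFY box in 4 of 8 and an SP1 box in 3 of 8 (37.5%), and the glycerolipid genes in 2 of 4 and 3 of 4. The SREBP letters were found in 2 members, Hmgcs1 and Mlxipl (6.06%), against 1.22% of all genes, and an E-box in 8 (24.2%) against 6.86%. Of the 8 members lower in every VPA library, 6 had a window, of which 5 held an NFY box, 5 an SP1 box, 1 the SREBP letters and none an E-box. Among the other 27 members with a window, 20 held an NFY box (74.1%) and 21 an SP1 box (77.8%). A match is a description of letters and not of binding.

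The regulators come first in the pathway, and none of the 6 differed at an unadjusted p under 0.05 in this fit. Srebf2, the main driver of the sterol genes, was at 59.1, 29.2 and 61.4 CPM in CTR replicates 1 to 3 and at 56.1, 34.4, 43.4 and 55.1 CPM in VPA replicates 1 to 4. The groups overlapped throughout, and the lowest value of each group came from slice culture 74. Its log2 fold change was −0.08 (SE 0.322, edgeR unadjusted p = 0.820). Srebf1 was at 14.6, 10.8 and 14.8 CPM in CTR and at 13.1, 16.0, 7.23 and 4.53 CPM in VPA, where 2 libraries lay below and 1 above all of CTR. The log2 fold change was −0.38 with an SE of 0.570, on 206 counts in all, and Rai1 overlaps the gene on the other strand. With single libraries left out the log2 fold change of Srebf1 ran from −0.68 to −0.14, and in limma-voom it was −0.0002. Scap, the escort of the SREBPs, was at 44.4 to 77.3 CPM in CTR and 40.8 to 93.4 CPM in VPA (log2 fold change 0.23, SE 0.340).

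Insig1 and Insig2 retain the SREBPs, and Insig1 is itself an SREBP target. Insig1 was at 18.5, 27.0 and 18.1 CPM in CTR and at 32.0, 10.1, 16.1 and 21.9 CPM in VPA, so that the VPA libraries spread to both sides of CTR (log2 fold change −0.09, SE 0.452). For Insig2 the CTR values were 41.8, 36.1 and 36.7 CPM and the VPA values 25.5, 71, 53.0 and 45.3 CPM. Here 3 VPA libraries lay above all CTR libraries and VPA replicate 1 lay below them (log2 fold change 0.36, SE 0.339). Without VPA replicate 1 it was 0.57, with an unadjusted p under 0.05, and with another library left out it fell to 0.11. Mlxipl, the carbohydrate-responsive regulator, was at 44.5, 66.4 and 37.3 CPM in CTR and at 46.4, 27.7, 8.03 and 24.2 CPM in VPA. Apart from VPA replicate 1 the VPA libraries lay below CTR, and the log2 fold change of −0.89 (SE 0.514) had an adjusted p of 0.744 in edgeR. Its unadjusted p was under 0.05 in limma-voom (−1.004), without VPA replicate 1 (−1.29) and with slice culture as a block (−1.41). With single libraries left out the log2 fold change of Mlxipl ran from −1.29 to −0.61. These SEs leave room for differences of either sign in the Srebf and Insig genes.

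Sterol synthesis holds the largest group of lower genes. Of 18 tested, 14 were lower and 4 higher, against 54.2% lower among all genes tested, with a median log2 fold change of −0.40, and 5 were lower at an unadjusted p under 0.05 (27.8%, against 4.62% of all genes). In 6 of 18, or 33.3%, every VPA library was below every CTR library, against 7.41% of all genes. The summed level of all 19 was 859, 723 and 1009 CPM in CTR and 777, 543, 607 and 720 CPM in VPA. VPA replicate 1 thus lay inside the CTR range and the other 3 below it.

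Hmgcs1 (ENSMUSG00000093930, chromosome 13 from 119690379 to 119708260, + strand) encodes the cytosolic synthase that makes HMG-CoA, the start of the pathway. It was at 133, 98.2 and 158 CPM in CTR and at 89.4, 89.8, 58.6 and 83.8 CPM in VPA. No VPA library reached the lowest CTR library, which was CTR replicate 2. The log2 fold change was −0.69 (SE 0.227, unadjusted p = 0.0173, adjusted p = 0.487 in edgeR). The two-sided exact permutation test gave p = 0.0286, the smallest that 35 divisions allow. It largely restates the gap between the groups, which 7.41% of all genes tested share in this direction. With a block by slice culture or by replicate, or without CTR replicate 3, the unadjusted p in edgeR was no longer under 0.05.

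Of the enzymes that turn mevalonate into isoprenoid units, none differed at an unadjusted p under 0.05 in edgeR, and Mvd did in limma-voom. Mvk, which phosphorylates mevalonate, was at 9.87 to 12.6 CPM in CTR and 6.04 to 18.9 CPM in VPA. Pmvk, the next kinase, had no count in VPA replicates 1 and 3, where 25.6 and 23.6 counts were expected from the other libraries, and was at 11.4 and 31.0 CPM in the other two. Mvd, the decarboxylase, was at 22.7 to 24.7 CPM in CTR and spread from 7.38 to 37.8 CPM in VPA. Idi1, the isomerase of the resulting unit, was thinly counted with 87 counts in all, at 6.70, 5.13 and 9.32 CPM in CTR and 6.53, 1.23, 5.62 and 4.53 CPM in VPA (log2 fold change −0.66, SE 0.815). The log2 fold change of Idi1 ran from −0.92 to −0.32 with single libraries left out and was −1.09 with a block by slice culture.

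Farnesyl diphosphate and squalene are the next intermediates. Fdps (ENSMUSG00000059743, chromosome 3 from 89093588 to 89101959, − strand), which makes farnesyl diphosphate, was at 46.5, 31.9 and 54.3 CPM in CTR and at 25.5, 16.0, 28.1 and 31.7 CPM in VPA. The groups came close, with VPA replicate 4 just below CTR replicate 2, and the log2 fold change was −0.81 (SE 0.322, unadjusted p = 0.0379, adjusted p = 0.573). The unadjusted p was no longer under 0.05 when CTR replicate 1 or 3 or VPA replicate 1 or 2 was left out. Fdft1, the squalene synthase, was at 25.2, 19.7 and 26.9 CPM in CTR and at 20.2, 17.8, 11.2 and 21.1 CPM in VPA. VPA replicates 1 and 4 exceeded the lowest CTR library there (log2 fold change −0.44, SE 0.350), and Ctsb overlaps Fdft1 on the other strand. Sqle (ENSMUSG00000022351, chromosome 15 from 59315077 to 59331192, + strand), the squalene epoxidase that controls flux into sterols, was at 35.5, 31.3 and 38.9 CPM in CTR and at 18.9, 13.5, 18.5 and 24.2 CPM in VPA. The 3 CTR libraries lay above the 4 VPA libraries, with a log2 fold change of −0.91 (SE 0.295, unadjusted p = 0.0159, adjusted p = 0.474), and the unadjusted p exceeded 0.05 when CTR replicate 1 or 3 was left out. Lss, which closes the first sterol ring system, showed no such gap, at 7.88, 6.90 and 14.8 CPM in CTR and 14.4, 7.38, 9.63 and 9.06 CPM in VPA (log2 fold change 0.04, SE 0.560).

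Cyp51 and Msmo1, which remove methyl groups from the early sterols, were lower in every VPA library with little spread within the groups. Cyp51 (ENSMUSG00000001467, chromosome 5 from 4081145 to 4104746, − strand) was at 75.7, 69.2 and 82.2 CPM in CTR and at 58.1, 40.6, 43.4 and 55.1 CPM in VPA. Its log2 fold change was −0.62 (SE 0.197, unadjusted p = 0.0147, adjusted p = 0.466). Akap9 overlaps Cyp51 on the other strand, and since the use of strand in the counting is not given, reads of Akap9 could be among those of Cyp51. Msmo1 (ENSMUSG00000031604, chromosome 8 from 64718139 to 64733792, − strand), which no other gene overlaps, was at 116, 103 and 130 CPM in CTR and at 76.4, 75.9, 85.9 and 86.1 CPM in VPA. With SDs of 13.2 and 5.68 CPM the groups stood apart, and the log2 fold change was −0.52 (SE 0.15, unadjusted p = 0.00895, adjusted p = 0.404). The fold changes of both stayed between −0.72 and −0.46 under all 16 alternatives, with an unadjusted p under 0.05 in each.

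Nsdhl (ENSMUSG00000031349, chromosome X from 72918557 to 72958514, + strand), which acts beside Msmo1 in the removal of these methyl groups, showed the widest gap of the sterol genes and the least certain one. It was at 28.0, 26.6 and 41.7 CPM in CTR and at 10.1 and 11.3 CPM in VPA replicates 2 and 4. VPA replicates 1 and 3 had no count, where 27.7 and 25.6 counts were expected. The fitted log2 fold change of −2.53 has an SE of 1.21 (unadjusted p = 0.0727) and rests in part on these 2 libraries. It was −3.38 in limma-voom and −4.69 with a block by replicate number. In DESeq2 and in limma-voom the unadjusted p of Nsdhl was under 0.05. In slice cultures 72 and 74, where both libraries had counts, VPA minus CTR was −1.24 and −1.32 on the log2 CPM scale.

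None of the later steps or accessory genes had an unadjusted p under 0.05. Hsd17b7, a keto-reductase, Ebp, a sterol isomerase, and Sc5d and Dhcr7, which set the final double bonds, had log2 fold changes from −0.15 to 0.62 with SEs from 0.316 to 0.631. Dhcr7 was highest in VPA replicate 1 at 66.6 CPM and lowest in VPA replicate 2 at 10.8 CPM, a range that held all CTR libraries (12.6 to 37.3 CPM). Stard4, a carrier of cholesterol between membranes, was at 12.4 to 39.5 CPM in CTR and 16.6 to 31.3 CPM in VPA. Acat2, the cytosolic thiolase that makes acetoacetyl-CoA, was at 108 to 124 CPM in CTR, while VPA replicates 1 and 2 were at 64.0 and 66.7 CPM and replicates 3 and 4 at 116 and 109 CPM. Tm7sf2, a sterol reductase, had 43 counts in all and was not tested.

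**Figure D1:**
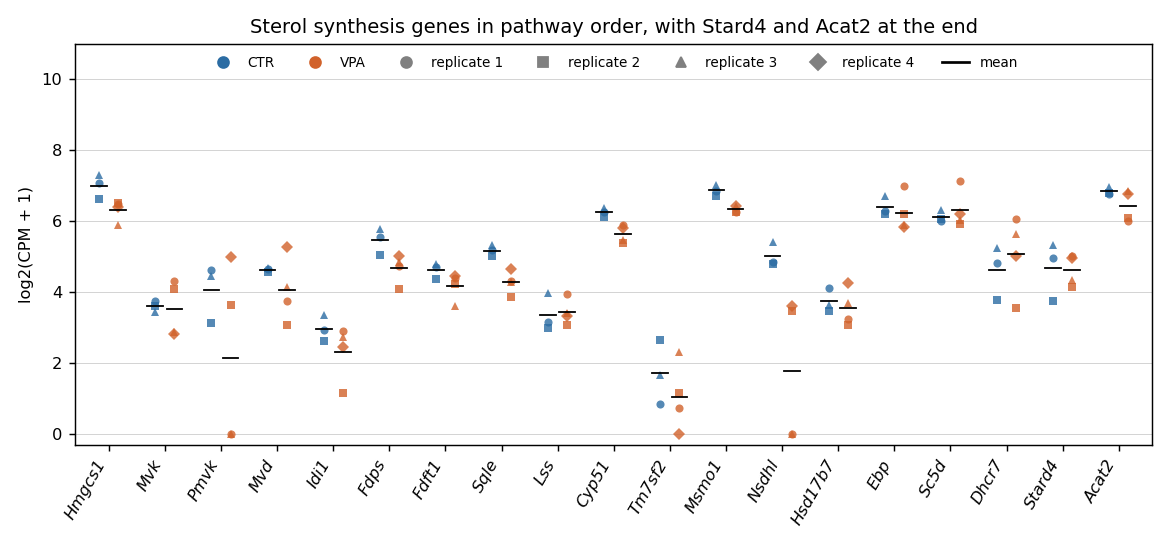
Level of the 19 sterol genes, in pathway order on the x axis, as log2(CPM + 1) on the y axis. Each point is 1 library (3 CTR, 4 VPA), symbols give the replicate number and bars the mean. Hmgcs1, Fdps, Sqle, Cyp51, Msmo1 and Nsdhl have all VPA points below all CTR points, and Pmvk and Nsdhl have 2 VPA libraries at 0.

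Fatty acid synthesis showed 9 of 10 tested genes lower, against 54.2% of all genes tested, though 1 alone had an unadjusted p under 0.05. The median log2 fold change was −0.38, and −0.23 without CTR replicate 3. Fasn (ENSMUSG00000025153, chromosome 11 from 120805846 to 120824547, − strand) encodes the synthase that builds palmitate. It was at 67.8, 50.1 and 70.7 CPM in CTR and at 18.3, 15.7, 13.6 and 37.0 CPM in VPA. The highest VPA library, replicate 4, stayed below the lowest CTR library, replicate 2. The log2 fold change was −1.57 (SE 0.378, unadjusted p = 0.00352, adjusted p = 0.310 in edgeR). The exact permutation test gave p = 0.0286, which again largely restates the gap between the groups. With DESeq2 in place of edgeR the adjusted p was 0.0425, and over the other alternatives it ran up to 1.00, with a log2 fold change from −1.98 to −1.43.

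None of the enzymes that feed Fasn had an unadjusted p under 0.05. Acly (ENSMUSG00000020917, chromosome 11 from 100476353 to 100528000, − strand), which makes cytosolic acetyl-CoA from citrate, was at 50.8, 48.3 and 65.2 CPM in CTR and at 35.9, 38.1, 40.1 and 46.1 CPM in VPA. All VPA libraries were below CTR by a narrow margin (log2 fold change −0.45, SE 0.206, unadjusted p = 0.0617, adjusted p = 0.630). Acaca, the acetyl-CoA carboxylase of lipogenesis, was at 21.3, 33.1 and 37.3 CPM in CTR and at 20.2, 20.3, 13.6 and 25.7 CPM in VPA. VPA replicate 4 reached into the CTR range (log2 fold change −0.61, SE 0.342, unadjusted p = 0.114). Acacb, the mitochondrial carboxylase, had 13 counts in all, every one in VPA replicate 4, and was not tested. Me1, which supplies NADPH, was at 95.7, 61.3 and 105 CPM in CTR and at 77.7, 64.3, 84.3 and 77.0 CPM in VPA, without a gap (log2 fold change −0.20, SE 0.222).

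Desaturases and elongases shape the fatty acids once made, and none of the 6 differed at an unadjusted p under 0.05. Scd1, the main hepatic stearoyl-CoA desaturase, was at 24.8, 79.8 and 106 CPM in CTR and at 131, 71.9, 17.7 and 30.2 CPM in VPA. The spread within each group exceeded the difference between them (log2 fold change −0.15, SE 0.723). Its neighbour Scd2 was at 43.7, 0 and 48.2 CPM in CTR and at 2.61, 40.9, 12.0 and 0 CPM in VPA. The deepest library, CTR replicate 2, thus had no Scd2 count where 122 were expected, and levels near 0 and above 40 CPM occurred in both groups. Elovl6, which lengthens palmitate, was at 21.7, 17.7 and 29.6 CPM in CTR and at 15.0, 21.5, 23.3 and 13.6 CPM in VPA (log2 fold change −0.32, SE 0.365). Elovl5, an elongase of polyunsaturated fatty acids, had no count in VPA replicate 1, where 58.5 were expected, and was at 30.5 to 51.0 CPM in the other VPA libraries against 31.5 to 47.7 CPM in CTR. Fads1 and Fads2, the desaturases of the same fatty acids, had log2 fold changes of 0.09 (SE 0.185) and −0.20 (SE 0.394).

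The glycerolipid genes were divided, with 3 of 6 higher and 3 lower and a median log2 fold change of 0.20. This median rests on single libraries, being 0.029 without VPA replicate 1, 0.082 without CTR replicate 2 and 0.45 without VPA replicate 3. Lpin1 (ENSMUSG00000020593, chromosome 12 from 16535669 to 16610966, − strand) encodes a phosphatidate phosphatase that also acts as a coactivator in the nucleus. It was at 25.6, 21.7 and 33.4 CPM in CTR and at 69.9, 63.3, 36.1 and 42.3 CPM in VPA. Every VPA library was above CTR, replicate 3 by a narrow margin, with a log2 fold change of 0.98 (SE 0.314, unadjusted p = 0.0150, adjusted p = 0.466 in edgeR; exact permutation test, p = 0.0571). Without CTR replicate 2, or with a block by either kind of number, the unadjusted p was no longer under 0.05. Its paralog Lpin2, the most highly counted member, was at 399, 252 and 277 CPM in CTR and at 398, 343, 331 and 612 CPM in VPA, where CTR replicate 1 lay among the VPA libraries (log2 fold change 0.44, SE 0.271).

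Gpam, the first acyltransferase of the pathway, spread widely in CTR, at 44.1, 17 and 66.9 CPM, and was at 13.7, 27.1, 30.5 and 23.4 CPM in VPA. The log2 fold change of −0.84 (SE 0.487) became −1.23 without CTR replicate 2, whose value lay within the VPA range, and −0.39 without CTR replicate 3. Agpat2, the next acyltransferase, was at 18.5 to 38.4 CPM in CTR and 19.3 to 33.3 CPM in VPA, and the endothelial gene Egfl7 overlaps it on the other strand. Dgat2, which completes triglycerides, was at 27.2, 20.9 and 30.2 CPM in CTR and at 72.5, 18.4, 45 and 32.5 CPM in VPA, so that 3 VPA libraries were above CTR and replicate 2 below (log2 fold change 0.69, SE 0.458). Its log2 fold change ran from 0.29 to 0.95 with single libraries left out and was 0.21 with a block by slice culture. Dgat1, the other enzyme of this step, had no count in VPA replicate 3, where 43.6 were expected, and was at 22.7 to 51.3 CPM in the other VPA libraries against 26.4 to 32.3 CPM in CTR.

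**Figure D2:**
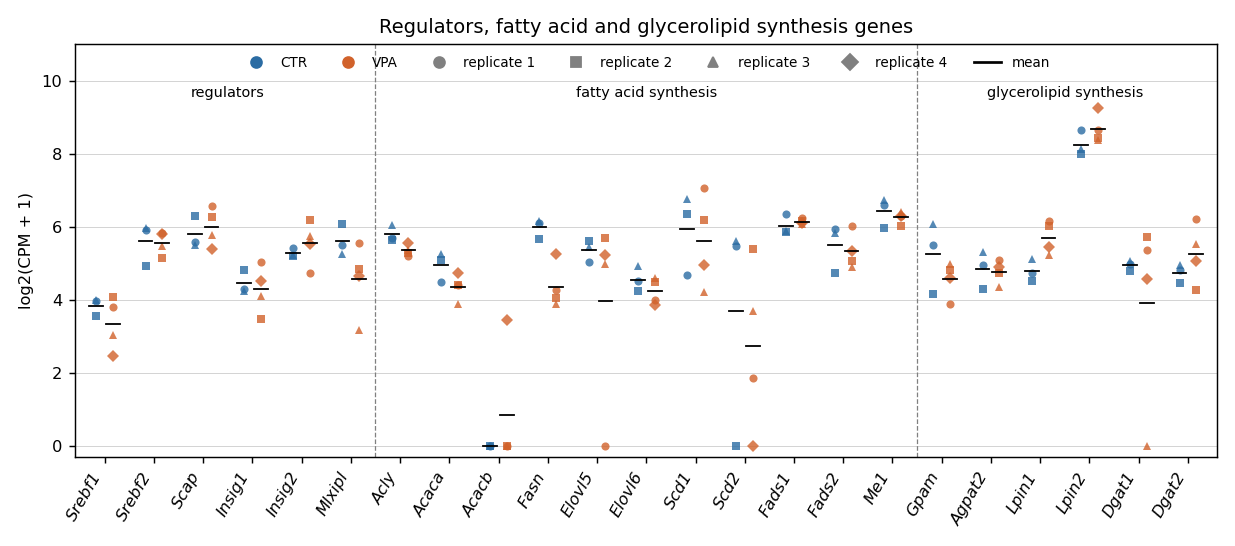
Level of the 6 regulators, 11 fatty acid genes and 6 glycerolipid genes, as log2(CPM + 1) on the y axis. Each point is 1 library (3 CTR, 4 VPA), symbols give the replicate number and bars the mean. Fasn and Acly have all VPA points below CTR and Lpin1 has all VPA points above, while Scd2, Elovl5 and Dgat1 hold libraries at 0, as Acacb does in all but VPA replicate 4.

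**Figure D3:**
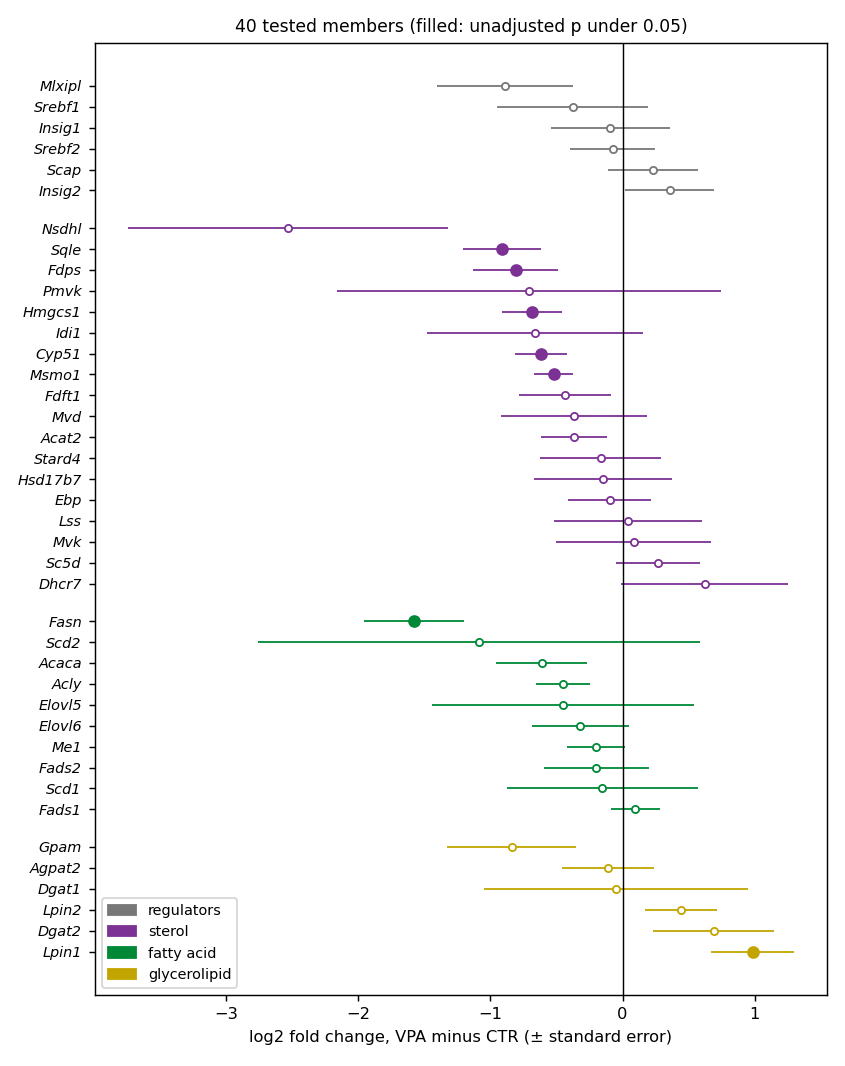
Log2 fold change of VPA against CTR with its standard error for the 40 tested members (x axis), by group and in order of size. Filled points mark the 7 members with an unadjusted p under 0.05 in edgeR, of which Fasn lies furthest from 0 at −1.57 and Lpin1 is the one above 0. Nsdhl, Scd2 and Pmvk have SEs of 1.21, 1.67 and 1.45.

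The ratio of paired family members was compared per library as a difference of log2 CPM, for Insig1 to Insig2, Scd1 to Scd2, Acaca to Acacb, Lpin1 to Lpin2, Dgat1 to Dgat2 and Srebf1 to Srebf2. None of the 6 ratios differed between the groups (two-sided exact permutation test, lowest p = 0.114, or 0.686 adjusted over the 6). Those with Scd2, Acacb or Dgat1 include libraries without a count and then depend on the prior count of 2. Lpin1 to Lpin2 moved by 0.50 on the log2 scale, from −3.47 ± 0.450 (SD, n = 3) to −2.98 ± 0.659 (SD, n = 4; exact permutation test, p = 0.314).

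**Figure D4:**
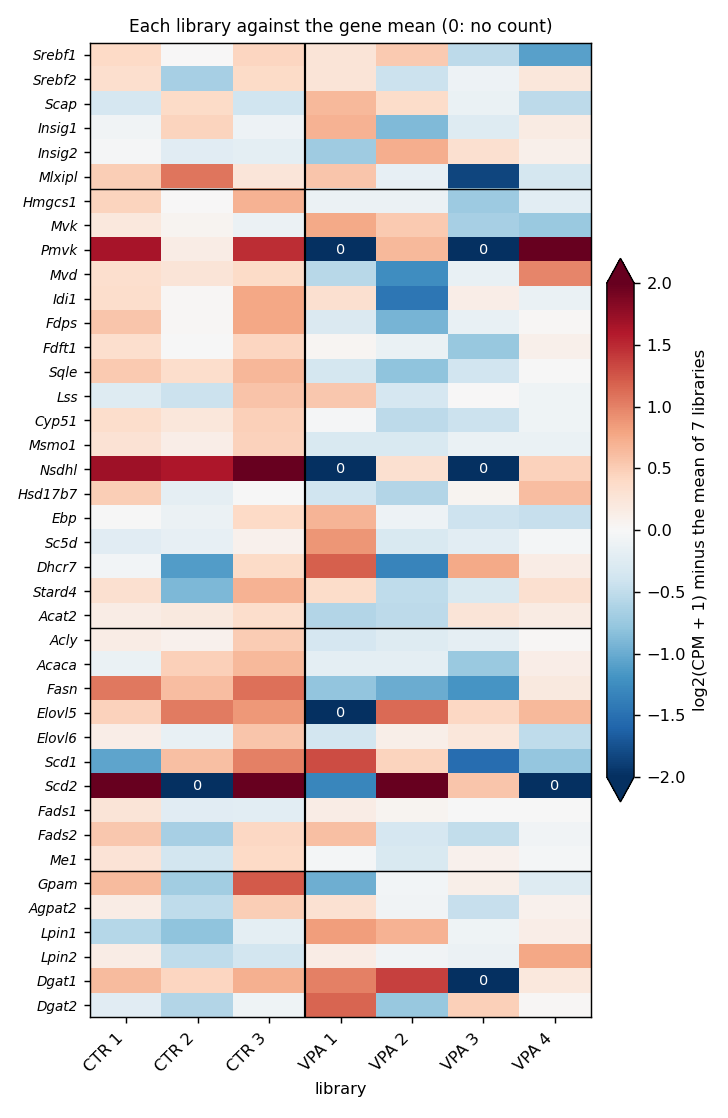
Each library's log2(CPM + 1) minus the mean of the 7 libraries for the 40 tested members (rows, in the order regulators, sterol, fatty acid and glycerolipid genes), with colours ending at ±2. CTR libraries are left of the line and VPA libraries right of it, and 0 marks a library without a count, of which there are 8.

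CTR and VPA libraries were also compared within the 3 slice culture numbers that both groups share, a comparison added after the data were seen. VPA was below CTR in all 3 cultures for 11 of 40 members, or 27.5%, against 19.9% of all genes tested, and above it for 3, or 7.5%, against 14.9%. The sterol genes, which are 18 of the 40 tested, made up 8 of the 11 (Hmgcs1, Idi1, Fdps, Fdft1, Sqle, Cyp51, Msmo1 and Nsdhl). Acly, Fasn and Mlxipl were the others. The difference of log2 CPM in cultures 71, 72 and 74 was −2.30, −0.86 and −1.62 for Fasn, −1.04, −0.54 and −1.16 for Sqle, and −0.59, −0.42 and −0.44 for Msmo1. It was smallest in culture 72 for Fasn, Sqle and Msmo1. Others of the 11 differed little in single cultures, with −0.13 for Hmgcs1 and −0.14 for Fdft1 in culture 74 and −0.14 for Acly in culture 72. Insig2, Lpin1 and Lpin2 were the 3 members above in every culture, Lpin1 by 0.11, 0.71 and 1.51.

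Other genes of the same routes were followed as 4 lists. For SREBP processing and sterol sensing, 15 of 17 genes were tested, of which 5 had a positive and 10 a negative log2 fold change, none with an unadjusted p under 0.05. For the supply of acetyl-CoA, citrate and NADPH, 12 of 14 genes were tested, and 1 was higher and 2 were lower at an unadjusted p under 0.05, where 3.65% and 4.62% of all genes were. The higher one was Cs, the mitochondrial citrate synthase, at 46.5, 44.9 and 46.6 CPM in CTR and 75.1, 89.5, 72.3 and 47.6 CPM in VPA (log2 fold change 0.63, unadjusted p = 0.0296). The lower ones were Pgls and Tkt of the pentose phosphate pathway, with log2 fold changes of −0.92 and −0.95 and unadjusted p of 0.0291 and 0.0451. Of the 14 genes of elongation and desaturation, all tested, 9 had a positive and 5 a negative log2 fold change, and none reached an unadjusted p under 0.05. Of 12 tested in the list of other glycerolipid genes, Agpat5, an acyltransferase, was higher at 83.5 to 122 CPM in VPA against 54.0 to 84.2 CPM in CTR (log2 fold change 0.70, unadjusted p = 0.0178). No gene of these 4 lists passed an adjusted p of 0.05 in edgeR.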

How the data were processed

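RNA-seq libraries of PCLS on day 3 were analysed, 3 CTR and 4 VPA. The authors prepared QuantSeq 3′ end libraries, mapped single-end reads to GRCm38.p6 with STAR and used StringTie, and they deposited raw read counts per Ensembl gene. The program that counted the reads, its strand setting and how it treated multi-mapped reads are not given in the sources used here. Because 3′ end counts give 1 read position per transcript, they do not grow with gene length.

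Symbols and coordinates were taken from GENCODE M21. The counts were analysed in R 4.3.3 with edgeR 4.0.16 (filterByExpr, TMM, robust quasi-likelihood fit, Benjamini-Hochberg adjustment over 10876 genes, threshold 0.05). CPM are counts scaled to TMM library sizes, and log2 CPM have a prior count of 2. The SE of a log2 fold change is its size divided by the square root of the F statistic. Single values were compared with exact permutation tests over 35 divisions of the libraries. The alternatives were DESeq2 1.42.0, limma-voom 3.58.1, other normalizations and filters, a fit without robust estimation, blocks, and leaving out each library. The edgeR code was tested on simulated data with less spread than these libraries and with larger planted changes than most members show. This checks the code and not the power of the fit in these libraries. The paper names DESeq2, which here served as an alternative.

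Every member is named, and values in each library are given for 22 members picked as main steps of the pathways and for those with an unadjusted p under 0.05 or without overlap between the groups. Of the other lists, genes with an unadjusted p under 0.05 are named. The members and lists were chosen with earlier results of these data known. All pairs of replicates differed by more than counting noise (chi-square per degree of freedom 14.7 to 27.3), and p-values measure the spread between libraries. The methods count 1 liver as a biological repeat, but which libraries share a liver is not given, and blocks by slice culture and replicate number were run as alternatives. Motifs were searched in the RefSeq promoter table. The qPCR, protein and human experiments were not analysed here.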

Additional observations from a re-analysis of the deposited data

Results flagged for a closer look

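Within the 4 VPA libraries, 49 measures were examined for a library far from the other 3, and 4 had one, where chance gives about 1 in 20 (a share of 0.05). Hmgcs1 was at 58.6 CPM in VPA replicate 3, while the other VPA libraries were between 83.8 and 89.8 CPM. Elovl5 had 0 CPM in VPA replicate 1 and 30.5 to 51.0 CPM in the others. The log2 ratio of Acaca to Acacb was 1.32 in VPA replicate 4, the one library with Acacb counts, and 4.12 to 4.66 in the others, where it rests on the prior count. The total count was 3102450 in VPA replicate 2 against 1400887 to 1515954 in the others.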

How the results depend on the processing

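The median log2 fold changes of the 4 groups of members moved by less than the spread between libraries in all 64 alternative values, but not by little for each. With libraries left out they ran from −0.29 to 0.088 for regulators, −0.55 to −0.28 for sterol, −0.54 to −0.23 for fatty acid and 0.029 to 0.45 for glycerolipid genes, the last being 0.016 with the slice culture block, and that of the fatty acid genes was −0.16 in limma-voom. Of 24 members followed through 16 alternatives each, 19 kept their sign in every one. The number of genes changed, 1 with edgeR, was 154 with DESeq2 (39 higher and 115 lower) and 10 without a filter on low counts (2 higher and 8 lower), and it ran from 0 to 2 when each library was left out. DESeq2 changed the number of members past an adjusted p of 0.05 from 0 to 1, which was Fasn with a log2 fold change of −1.59. The number of members lower at an unadjusted p under 0.05 ran from 3 to 7 when each library was left out, and that of members higher from 0 to 2. There were 7 lower members in DESeq2, which added Nsdhl, and 9 in limma-voom, which added Nsdhl, Mvd and Mlxipl, where 2.69% and 10% of all genes tested were lower against 4.62% in edgeR. Acly was added without VPA replicate 4 and Gpam without CTR replicate 2.

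Slice culture and replicate numbers are shared between the groups. The reported fit did not treat same-numbered libraries as pairs, and whether same-numbered cultures share a liver is not given. The correlation of deviations from the group means between same-numbered libraries was 0.107, 0.0256 and 0.0546 for cultures 71, 72 and 74. For replicates 1 to 3 it was −0.0539, 0.0546 and 0.107, where 0.0546 and 0.107 come from the same pairs of libraries as before. These correlations cannot decide whether the cultures are pairs, because each rests on 1 pair of libraries. With a replicate block by slice culture or by replicate number the count of genes changed was 0 in both fits, with 360 and 372 higher and 508 and 612 lower genes at an unadjusted p under 0.05. Hmgcs1 and Lpin1 had no unadjusted p under 0.05 with either block. The block by replicate number left 0 members higher, while with that by slice culture Lpin2 was the 1 higher and Mlxipl was among the lower members.

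The sign turned for 5 members. Srebf2 was at 0.020 in limma-voom and between −0.36 and 0.074 with libraries left out. Lss was at −0.059 without a filter, at −0.10 with the slice culture block and between −0.18 and 0.42 with libraries left out. Insig1 ran from −0.42 to 0.14 and Scd1 from −0.78 to 0.23 with libraries left out. Scd2, with 2 libraries at 0, was at −1.09 in edgeR and at 4.01 in limma-voom. With libraries left out, the difference of the log2 ratio of Insig1 to Insig2 ran from −0.96 to 0.054 and that of Scd1 to Scd2 from −0.91 to 2.79. The causes were not tested. Idi1 and Lss were thinly counted, and Scd2, Pmvk, Nsdhl, Dgat1 and Elovl5 had libraries at 0 and SEs from 0.994 to 1.67.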

Other observations

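Some genes had no count in a library although the other libraries gave an expected count of at least 20. There were 659 of them among 7669 genes in VPA replicate 1 and 124 among 9323 in CTR replicate 1. Among the members, Pmvk and Nsdhl were at 0 in both VPA replicates 1 and 3, Scd2 in CTR replicate 2 and VPA replicate 4, Elovl5 in VPA replicate 1 and Dgat1 in VPA replicate 3. Each of these 5 genes had counts in other libraries of the same group. The 7 members with an unadjusted p under 0.05 had counts in every library.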
